A study of Mus musculus with 3 samples.

Results

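The intestine of mouse pups put through a necrotizing enterocolitis model while receiving the HDAC8 inhibitor PCI34051 was compared with the intestine of dam-fed control pups, using the read counts of all 21983 genes listed. These are 2 of the 3 RNA-seq libraries of the study, 1 per group. Necrotizing enterocolitis (NEC) is an inflammatory disease of the newborn bowel. Control pups stayed with the dam, had no hypoxia or cold, and received PBS, the vehicle. Pups of the PCI34051+NEC group were gavaged with 40 µl of a 33% milk replacer (Esbilac) every 4 h over 96 h. Every 12 h they also met 99.9% nitrogen for 100 s and then 4 °C for 10 min. They were fed PCI34051 at 10 mg/kg per day, once a day for 5 days, starting the day before the model. The NEC group, whose values are given beside each result, had the same formula, hypoxia and cold with PBS in place of the drug. All 3 groups are labelled wild type and were killed at 96 h. Strain, age, bowel segment, hour of killing and the number of pups behind each library are not named in the labels. Against control, formula, hypoxia, cold and the drug came together, and their shares in a difference cannot be told apart. The column of the PCI34051+NEC library is named a little differently from its sample description and was assigned because no other column or sample matched it. Every PCI34051+NEC value rests on that.

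The gene groups that set these libraries apart have well-known biology. Type I and III interferons act through JAK kinases and the transcription factor ISGF3 on a promoter element shared by antiviral genes. Glucocorticoids act through the receptor encoded by Nr3c1 and induce genes such as Fkbp5, Tsc22d3 and Zbtb16. Villus enterocytes take up dietary fat and pack it into chylomicrons with apolipoproteins and the transfer protein Mttp, while the suckling gut also digests milk protein inside large lysosomes. HDAC8, the target of the drug, is a zinc-dependent lysine deacetylase, known for acting on the cohesin subunit SMC3. A transcript level does not measure its enzyme activity.

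Levels are in CPM, the share of a library's counts per 1000000 after TMM scaling, and are given in the order control, NEC and PCI34051+NEC. A gene was measured when it had at least 1 CPM in 1 or both of the control and PCI34051+NEC libraries, and 13652 genes were. Differences are on the log2(CPM + 1) scale, PCI34051+NEC minus control, so that a gene is called higher at 1 or more and lower at -1 or less. Fold ratios are plain ratios of CPM. Their 95% intervals cover counting error only, and with 1 library a group there is no replicate check and no p-value. A gene level in whole intestine does not tell fewer cells of a type apart from less RNA per cell.

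The control and PCI34051+NEC libraries held 15076413 and 16497580 counts. The mitochondrially encoded genes took 4.88% and 3.73% of counts, against 32.4% in the NEC library. Vil1, which encodes the microvillus protein villin, was at 1015, 492 and 983 CPM, and the smooth muscle myosin gene Myh11 at 268, 4215 and 286 CPM. The Y-linked gene Eif2s3y had 999, 0 and 1134 counts, so both libraries compared here hold RNA of male pups, unlike the NEC library. Muc2, the defining goblet cell mucin gene, and Jund are listed at 0 counts in all 3 libraries, and Gapdh is listed at only 5.16, 33.3 and 3.55 CPM, so a low listed value is not always a low level.

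Of the 13652 measured genes, 894 were 2-fold higher and 894 were 2-fold lower in the PCI34051+NEC library, 6.55% each and 13.1% together. The counting interval lay beyond 2-fold for 698 higher genes (5.11%) and 651 lower genes (4.77%). The median difference over all measured genes was -0.001. At least 4-fold differences were found for 150 genes upward and 127 downward. The direction went with the level: under a mean of 5 CPM 13.3% of genes were lower and 4.45% higher, whereas from 100 to 1000 CPM 2.66% were lower and 9.33% higher. With total counts in place of TMM, the median shift of the differences was -0.18. Then 633 genes were higher and 1256 lower, so that 33.5% of calls were upward where TMM gave 50%. The counts of each gene group below are to be read against these shares.

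**Figure D1:**
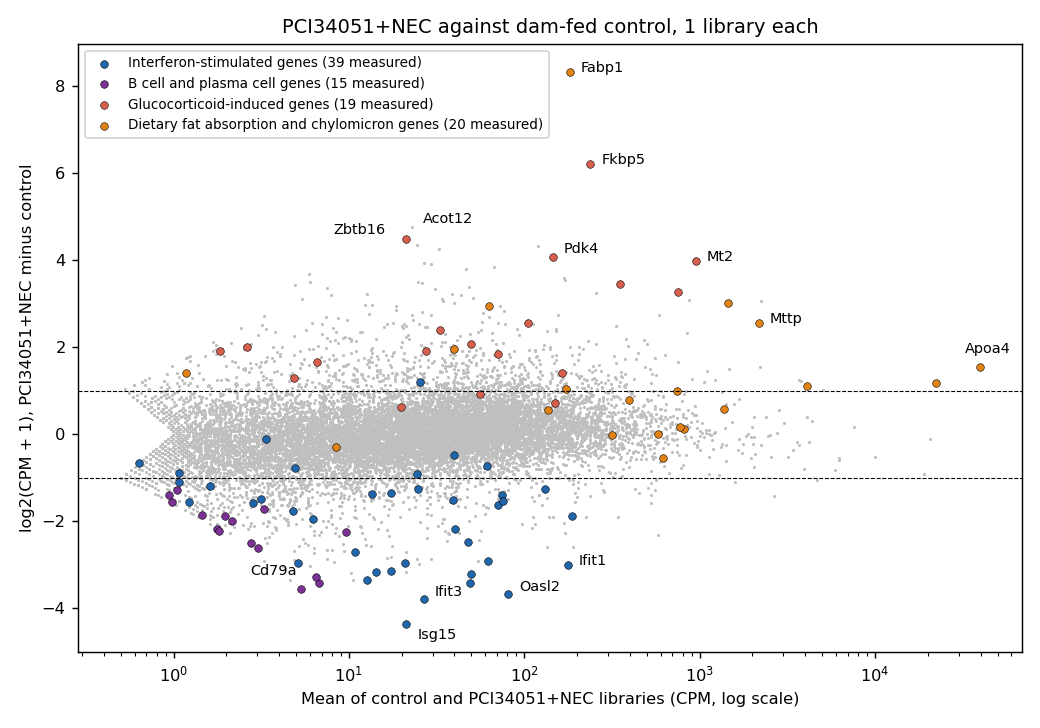
Difference of each measured gene between the PCI34051+NEC and control libraries on the log2(CPM + 1) scale (vertical axis), against its mean CPM in both libraries (horizontal axis, log scale). Points are genes, 4 gene lists are coloured, and dashed lines mark 2-fold. Interferon-stimulated and B cell genes lie mostly under the lower line, and glucocorticoid-induced genes mostly over the upper line, with Fabp1 at 8.34 at the top.

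Of the gene lists, the interferon-stimulated genes held the most members on the lower side. All 39 listed genes were measured, 31 were 2-fold lower and 1 was 2-fold higher, with a median of -1.59, against 6.55% lower and a median of -0.001 over all genes. Their summed level was 2320, 410.1 and 590.4 CPM. The number that was lower ran from 26 to 33 over the alternative settings. The proximal promoters of 3 of these genes are shown because each carries the core of the interferon-stimulated response element, set in capitals (RefSeq sequence, GRCm38.p6, 250 bases before to 50 after the start, 5′ to 3′ on the gene's strand). Ifit1 lies at chr19:34640639-34640938 on the plus strand, Ifit3 at chr19:34583279-34583578 on the plus strand and Isg15 at chr4:156200769-156201068 on the minus strand.
Ifit1: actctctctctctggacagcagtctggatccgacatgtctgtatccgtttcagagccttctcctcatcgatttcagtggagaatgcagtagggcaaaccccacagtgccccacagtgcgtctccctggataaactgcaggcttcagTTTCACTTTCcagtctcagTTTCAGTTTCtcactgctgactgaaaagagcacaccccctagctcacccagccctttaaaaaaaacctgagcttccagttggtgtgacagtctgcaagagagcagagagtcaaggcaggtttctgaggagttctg
Ifit3: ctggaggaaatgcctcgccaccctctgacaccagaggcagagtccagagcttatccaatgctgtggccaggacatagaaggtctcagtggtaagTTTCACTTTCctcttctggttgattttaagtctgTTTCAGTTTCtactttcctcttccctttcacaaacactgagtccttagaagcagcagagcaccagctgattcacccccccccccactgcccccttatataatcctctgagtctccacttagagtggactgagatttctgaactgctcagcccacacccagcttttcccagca
Isg15: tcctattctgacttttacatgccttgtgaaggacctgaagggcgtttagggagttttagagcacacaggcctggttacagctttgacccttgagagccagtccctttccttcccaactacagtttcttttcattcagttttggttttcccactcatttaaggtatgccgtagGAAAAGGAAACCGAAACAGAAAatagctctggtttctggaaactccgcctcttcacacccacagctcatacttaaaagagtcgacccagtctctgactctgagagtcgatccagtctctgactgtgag
The core was searched as GAAA, any 2 bases and GAAA again, on either strand. Ifit1 and Ifit3 hold 2 copies each, read here on the opposite strand, and Isg15 holds 3 overlapping copies between 78 and 57 bases before its start. In 28 of the 39 genes a promoter window was at hand, and 16 of them (57.1%) held the core in 1 or more windows. Among all genes with a window the share was 3.8% of measured genes, 9.16% of 2-fold lower genes and 3.84% of 2-fold higher genes. Counted per window and not per gene, it was 3.44% of all 32851 windows. A longer form that contains the core, with CT after the second GAAA, was in 10 of the 28 (35.7%). It was in 0.411% of measured genes with a window and in 0.271% of all windows. A match describes letters in the window and not binding.

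Isg15, the ubiquitin-like modifier that is joined to proteins in antiviral cells (ENSMUSG00000035692, chr4:156199424-156200818 in mm10), was at 41.5, 0.457 and 1.05 CPM, or 660, 5 and 16 counts. It was 39.5-fold lower in the PCI34051+NEC library than in control (24.1 to 69.5), the largest difference of the list. Ifit3 was at 51.0, 1.46 and 2.76 CPM, 18.5-fold lower (13.6 to 25.9). Control stood alone for both genes, and both formula-fed libraries were low. Ifit1, which binds viral RNA ends (ENSMUSG00000034459, chr19:34640871-34650009), was at 317, 4.57 and 38.4 CPM, so the PCI34051+NEC level lay between the others and 8.26-fold under control (7.58 to 9.01). Oasl2, of the oligoadenylate synthetase family, was at 152, 9.22 and 10.9 CPM, 13.9-fold lower (11.9 to 16.4), and Oas1g at 23.9, 1.46 and 1.45 CPM, 16.5-fold lower (10.8 to 26.7). Bst2, which tethers budding virus to the cell, was at 90.5, 6.21 and 7.49 CPM, 12.1-fold lower (9.98 to 14.8). Control was also far above the rest for Usp18, which removes ISG15 from proteins, at 26.4, 1.00 and 2.04 CPM, and for the sensor gene Dhx58 at 31.8, 6.12 and 2.69 CPM, where the PCI34051+NEC library was lowest. Rtp4 was at 90.9, 1.55 and 8.93 CPM, lowest in the NEC library.

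The transcription factor genes of the pathway were lower by less. Irf7, the amplifier of interferon production, was at 295, 43.7 and 79.3 CPM, 3.72-fold lower (3.50 to 3.97). Irf9 differed 2.68-fold (2.45 to 2.95) and Stat2 2.40-fold (2.24 to 2.57), both lower. Some members did not reach 2-fold, among them the RNA sensor Ddx58 at 76.5, 21.6 and 46.0 CPM. Ifit1bl1 was the 1 member that was higher, at 15.1, 5.66 and 36.1 CPM, and members of the Ifit and Oas families may share reads. A list of 18 interferon receptor and signalling genes, chosen after values were seen, had 2 higher and 5 lower with a median of -0.33. The receptor genes differed in direction: Ifnar1 was at 124, 49.2 and 73.9 CPM, 1.68-fold lower (1.56 to 1.81), and Ifngr1 at 123, 101 and 368 CPM, 2.99-fold higher (2.84 to 3.15). No interferon gene could be measured, since 10 of 11 ligand genes had 0 counts in control and all 11 had 0 counts in the PCI34051+NEC library.

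Antigen presentation was divided by step. For MHC class I, 5 of 16 measured genes were lower and 2 higher, with a median of -0.45. The immunoproteasome subunit genes were low in both formula-fed libraries. Psmb8 was at 29.1, 3.38 and 4.93 CPM, 5.91-fold lower (4.62 to 7.65), and Psmb9 at 27.7, 3.84 and 5.19 CPM, 5.33-fold lower (4.19 to 6.87). Tap1, the peptide transporter of the endoplasmic reticulum, was at 46.8, 6.21 and 12.2 CPM. The heavy chain gene H2-K1 was at 1072, 285 and 1093 CPM and H2-D1 at 1849, 229.5 and 1442 CPM, so these differed from control by little although the NEC library was low. H2-Q2 was at 86.1, 30.7 and 229 CPM, 2.66-fold higher (2.50 to 2.83), and near-identical class I genes may share reads. For MHC class II, 8 of 11 measured genes were lower, none higher, with a median of -2.10. H2-Ab1 was at 62.6, 3.01 and 12.0 CPM, 5.24-fold lower (4.47 to 6.17), and the invariant chain gene Cd74 at 157, 9.50 and 36.9 CPM, 4.26-fold lower (3.89 to 4.68). The master regulator Ciita was at 6.80, 1.55 and 0.788 CPM.

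**Figure D2:**
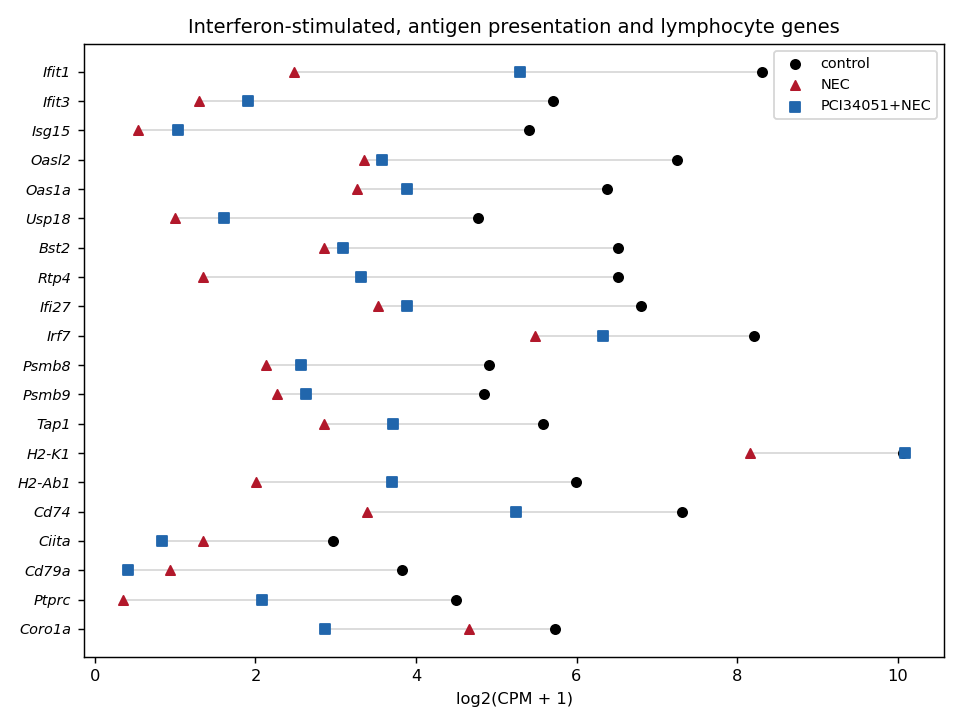
Levels of 20 interferon-stimulated, antigen presentation and lymphocyte genes on the log2(CPM + 1) axis, 1 symbol per library (circle control, triangle NEC, square PCI34051+NEC), joined by a grey line. For all genes but H2-K1 the control circle lies to the right of the other symbols, and for Isg15, Oasl2 and Bst2 the square and the triangle lie close together.

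B cell genes were lower throughout. Of 16 listed genes 15 were measured, and all 15 were 2-fold lower, with a median of -2.18. Their summed level was 93.2, 8.95 and 5.52 CPM, and Pax5, Jchain, Mzb1 and Pou2af1 were among the members with 0 counts in the PCI34051+NEC library. Cd79a, a signalling chain of the B cell receptor, had 209, 10 and 5 counts, 40.0-fold lower (16.9 to 125), and Cd79b had 200, 0 and 6 counts, 31.9-fold lower (14.4 to 88.0). These genes were low in both formula-fed libraries and rested on few counts in control. At such low levels 13.3% of all genes were lower, as given above, and the number of B cell genes called ran from 15 down to 6 with a pseudocount of 4 CPM.

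T cell and innate lymphocyte genes had 11 of 16 lower and none higher, with a median of -1.54, but only 1 was called with a pseudocount of 4 CPM. Lck, the kinase beside the T cell receptor, was at 6.10, 3.29 and 0.788 CPM, 7.74-fold lower (4.24 to 15.5). Of this list, 1, 8 and 4 members had 0 counts in control, NEC and PCI34051+NEC. Those in the PCI34051+NEC library were Cd3d, Cd2, Gzmb and Ncr1. Among genes of organised lymphoid tissue, lymphotoxin beta (Ltb) was at 12.3, 1.83 and 0.394 CPM, 31.1-fold lower (14.0 to 85.9), and the B cell attractant Cxcl13 at 6.92, 0.548 and 1.18 CPM, 5.85-fold lower (3.54 to 10.2). Madcam1, the address molecule of gut venules, was at 6.35, 7.03 and 1.97 CPM, low in the PCI34051+NEC library alone. How much lymphoid tissue each sample held was not measured, and its part in these differences was not tested.

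Macrophage and dendritic cell genes were mixed, with 7 of 18 lower, 2 higher and a median of -0.57. Csf1r, the growth factor receptor of macrophages, was at 406, 58.8 and 160.4 CPM, 2.53-fold lower (2.42 to 2.66), and Folr2 at 25, 6.12 and 5.45 CPM. Complement C1qa, which resident macrophages make, was at 24.5, 45.3 and 20.8 CPM and hardly differed. The scavenger receptor gene Cd163, which glucocorticoids induce, was at 0.440, 24.5 and 4.99 CPM, 11.3-fold higher than control (5.24 to 29.1). Cytokine and chemokine genes were sparse in every library, with 8, 7 and 10 of 33 at 0 counts in control, NEC and PCI34051+NEC. Of the 18 measured, 5 were lower and 2 higher. Ccl25, the small bowel chemokine made by enterocytes, was at 44.9, 80.7 and 122 CPM, 2.72-fold higher (2.49 to 2.97). Tnfaip3, the NF-kappaB feedback inhibitor A20, was at 17.2, 11.4 and 60.7 CPM, 3.52-fold higher (3.07 to 4.04), and was the 1 gene higher of 24 in the Toll-like receptor and NF-kappaB list, where 2 were lower.

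**Figure D3:**
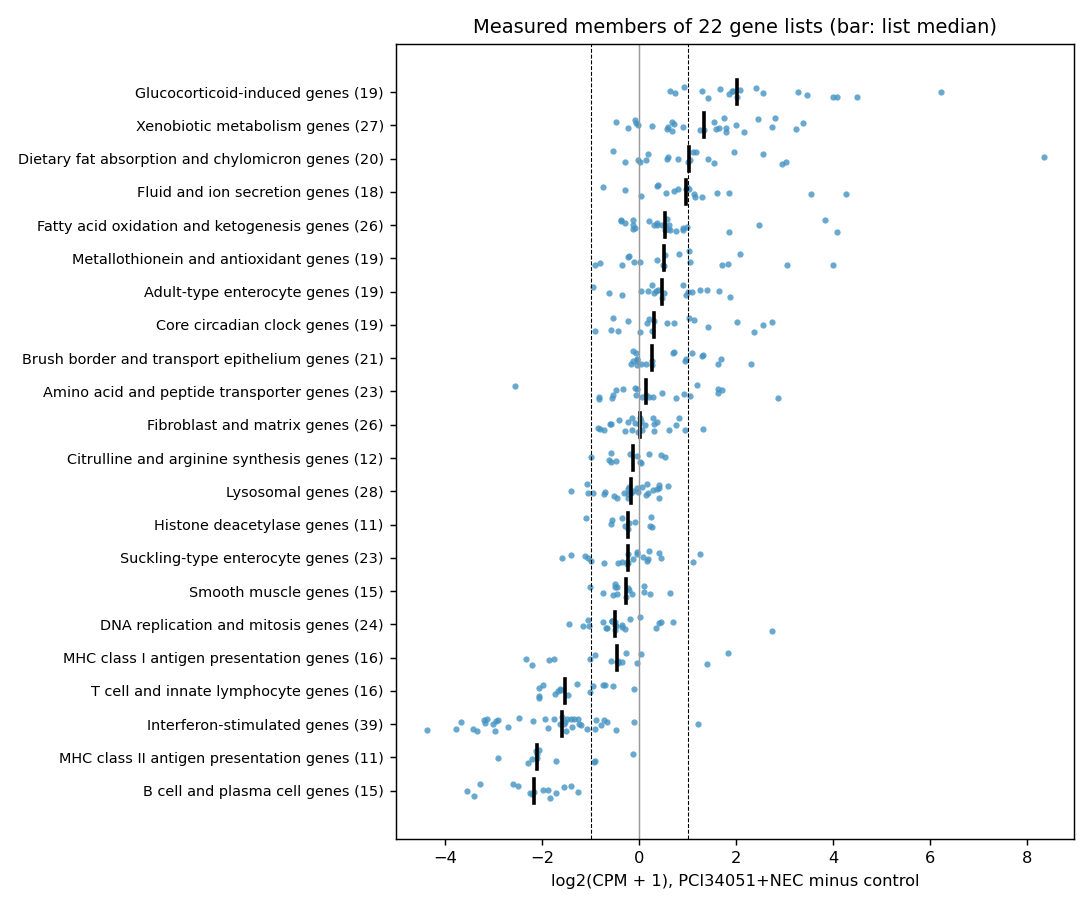
Differences of the measured members of 22 gene lists between the PCI34051+NEC and control libraries on the log2(CPM + 1) scale. Each point is a gene, the black bar is the list median, the number measured is in parentheses, and dashed lines mark 2-fold. Medians run from -2.18 for B cell genes to 2.01 for glucocorticoid-induced genes, and the histone deacetylase and citrulline synthesis lists lie near 0.

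On the higher side, glucocorticoid-induced genes stood out. Of 20 listed genes 19 were measured, 16 were 2-fold higher and none lower, with a median of 2.01, and their summed level was 691, 2887 and 5604 CPM. The median difference of the NEC library from the same control was 2.28. Per1 and Mt2, described below with the clock and metallothionein genes, are also on this list. Fkbp5, the immunophilin that restrains the receptor (ENSMUSG00000024222, chr17:28399094-28517527), was at 5.35, 292 and 471 CPM and had the largest difference of the list, 6.22. Tsc22d3, the leucine zipper protein GILZ, was at 57.6, 204 and 641 CPM, 11.1-fold higher (10.4 to 11.9). Sgk1, a kinase that raises sodium uptake, was at 139.6, 269 and 1365 CPM, 9.78-fold higher (9.36 to 10.2). Both were highest in the PCI34051+NEC library and intermediate in the NEC library. Klf9, a receptor target and transcription factor, was at 18.4, 18.4 and 81.1 CPM, 4.41-fold higher (3.88 to 5.03), with the NEC library at the control level. The reverse held for Slc10a6, a steroid sulfate carrier, at 0.440, 92.1 and 4.80 CPM, and for the kinase gene Map3k6 at 2.64, 191 and 10.6 CPM, which were far higher in the NEC library. The classical targets Dusp1 (15.5, 28.9 and 24.4 CPM) and Nfkbia (38.1, 51.8 and 73.2 CPM) did not reach 2-fold. The receptor gene Nr3c1 itself was at 78.7, 31.5 and 103 CPM. Corticosterone was not measured.

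The letters of the glucocorticoid response element are GNACA and TGTNC with any 3 bases between them, on either strand. They were found in 3 of the 17 genes of this list with a promoter window (Sgk1, Slc10a6 and Map3k6). Counted per window, they were in 0.475% of all windows, and counted per gene in 0.393% of measured genes with a window. Of genes with a window, 8 of 703 that were 2-fold higher (1.14%) and 1 of 688 that were 2-fold lower (0.145%) held them. Mt1, described below and not on this list, was among the 8. The Map3k6 window (chr4:133240568-133240867, plus strand, GRCm38.p6) is shown as the example, with the match in capitals 181 to 169 bases before the start.
Map3k6: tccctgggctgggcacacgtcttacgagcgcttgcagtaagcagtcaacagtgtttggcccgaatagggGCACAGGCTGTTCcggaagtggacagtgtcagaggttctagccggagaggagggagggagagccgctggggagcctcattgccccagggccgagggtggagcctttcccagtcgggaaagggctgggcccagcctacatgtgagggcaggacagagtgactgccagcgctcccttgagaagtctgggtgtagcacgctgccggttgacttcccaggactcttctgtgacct
Fkbp5 and Tsc22d3 held no match within this window.

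Some clock genes were higher and others were not. Of 19 core clock genes 7 were higher and none lower, with a median of 0.31. Per1 was at 29.6, 260.2 and 179.7 CPM, 6.06-fold higher (5.50 to 6.70), and the repressor gene Nr1d1 at 5.22, 47.9 and 40.7 CPM, 7.79-fold higher (6.18 to 9.91). Nr1d2 was at 12.7, 54.4 and 54.7 CPM, 4.30-fold higher (3.68 to 5.04). In these 3 genes both formula-fed libraries were high and control was low. Cry2 was at 48.6, 78.7 and 255 CPM, 5.26-fold higher (4.86 to 5.68), and high in the PCI34051+NEC library alone. Per2 (116, 44.9 and 85.4 CPM), Dbp (10.3, 9.13 and 6.50 CPM) and Arntl (12.1, 10.4 and 15.2 CPM) did not differ by 2-fold. The hour of killing is not given in the sources used here, and its part was not tested.

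Metallothionein genes, which bind zinc and copper and answer to metals and glucocorticoids, were strongly higher. Mt1 (ENSMUSG00000031765, chr8:94179082-94180327) was at 478, 1672 and 3978 CPM, 8.32-fold higher (8.12 to 8.52), and Mt2 was at 111, 846 and 1787 CPM, 16.1-fold higher (15.3 to 16.9). For both genes the order was control, NEC, PCI34051+NEC. The Mt1 window (chr8:94178839-94179138, plus strand, GRCm38.p6) is shown with its metal response element letters in capitals. TGCACNC lies at 23 to 17 bases before the start and again 2 to 8 bases after it, and TGCGCNC at 20 to 26 bases after it. The window also holds the letters of the glucocorticoid response element given above, which are left in small letters here.
Mt1: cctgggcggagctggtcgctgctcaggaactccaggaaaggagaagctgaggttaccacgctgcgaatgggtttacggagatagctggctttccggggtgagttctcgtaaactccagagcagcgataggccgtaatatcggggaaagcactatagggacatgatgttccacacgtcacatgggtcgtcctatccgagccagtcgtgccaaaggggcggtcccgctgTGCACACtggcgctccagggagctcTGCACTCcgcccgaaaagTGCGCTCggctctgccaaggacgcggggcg
These short motifs are common, with TGCACNC in 12.6% and TGCGCNC in 15.4% of all windows on either strand. Counted per measured gene with a window, the shares were 15.4% and 29.5%. Among 2-fold higher genes they were 18.3% and 27.9%. Over the metallothionein and antioxidant list 7 of 19 were higher and none lower, with a median of 0.50. Prdx6, a peroxiredoxin, was at 97.7, 85.8 and 414 CPM, 4.24-fold higher (4.01 to 4.49), and Nqo1, a quinone reductase and NRF2 target, at 10.8, 24.7 and 40.6 CPM, 3.77-fold higher (3.18 to 4.50). The NRF2 targets Srxn1 (356, 83.4 and 275 CPM) and Hmox1 (61.7, 27.8 and 34.8 CPM) were not higher. The secreted selenoprotein Gpx3 was at 24847, 4681 and 13226 CPM, 1.88-fold lower (1.87 to 1.89), while Selenop, which carries selenium, was at 2171, 583 and 5176 CPM, 2.38-fold higher (2.35 to 2.41).

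Of the other stress lists, none had a median past 2-fold. Hypoxia-induced genes had 4 of 19 higher, 1 lower and a median of 0.02, which was -0.16 with total counts. The 4 were Ndrg1 (181, 408 and 1548 CPM, 8.57-fold, 8.24 to 8.91), the glycolysis activator Pfkfb3 (47.1, 43.8 and 184 CPM), Higd1a (10.6, 24.1 and 42.8 CPM) and Vegfa (81.0, 75.9 and 171 CPM). The 1 lower was Ankrd37, at 15.7, 5.48 and 5.52 CPM, 2.85-fold lower (2.22 to 3.69). The hypoxia targets Car9, Pdk1, Ldha and Slc2a1, all but Ldha picked after values were seen, differed by less than 0.2. Cold-inducible and heat shock genes had none of 15 higher and 2 lower, with a median of -0.18. In the unfolded protein response list, Herpud1 was the 1 gene higher of 19, at 159.8, 137 and 504 CPM. The integrated stress response had 4 of 18 higher and 2 lower. Its largest difference was Vldlr, a lipoprotein receptor, at 4.78, 21.3 and 57.5 CPM, 12.0-fold higher (9.50 to 15.4). Immediate early genes had 4 of 18 higher and 1 lower, with a median of 0.55. Among them, Fos was at 6.73, 32.5 and 70.9 CPM, 10.5-fold higher (8.63 to 13), while Jun was at 261, 73.0 and 161 CPM.

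Genes of fat absorption were higher in the PCI34051+NEC library, with 11 of 20 called, none lower and a median of 1.02. The number called ran from 7 to 11 over the alternative settings. Fabp1, the liver-type fatty acid binding protein also made by proximal enterocytes (ENSMUSG00000054422, chr6:71199827-71205023), had 2, 743 and 5537 counts, or 0.126, 67.9 and 364 CPM. It was all but missing in control alone. Fabp2, the intestinal form, was at 314, 616 and 2571 CPM, 8.19-fold higher (7.95 to 8.43), and the fatty acid receptor gene Cd36 was at 13.8, 17.3 and 112 CPM, 8.15-fold higher (7.08 to 9.43). The chylomicron genes followed with smaller ratios. Mttp was at 631, 559 and 3713 CPM, Apob, the chylomicron backbone, at 2614, 920.1 and 5615 CPM (2.15-fold, 2.12 to 2.17), and Apoa1 at 13701, 6947 and 31024 CPM (2.26-fold, 2.25 to 2.28). Apoa4 and Apoa1 together took 3.57%, 1.72% and 8.29% of all counts. The NEC library was below control in these apolipoproteins. The enzymes that rebuild triglyceride did not reach 2-fold, with Mogat2 at 319, 56.3 and 315 CPM and Dgat1 at 288, 311 and 499.6 CPM, and the droplet coat gene Plin2 was at 728, 162 and 502 CPM.

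The Fabp1 window (chr6:71199629-71199928, plus strand, GRCm38.p6) is shown because it holds a direct repeat of the kind bound by PPAR and HNF4 receptors, TGACCT, any base and TGNCCT on either strand, 67 to 55 bases before the start.
Fabp1: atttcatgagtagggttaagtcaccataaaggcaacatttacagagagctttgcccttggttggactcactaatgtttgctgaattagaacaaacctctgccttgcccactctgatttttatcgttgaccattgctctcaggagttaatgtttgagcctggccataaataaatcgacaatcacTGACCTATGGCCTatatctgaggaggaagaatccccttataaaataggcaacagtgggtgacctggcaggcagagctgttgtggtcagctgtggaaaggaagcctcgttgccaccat
Only 31 of 32851 windows (0.0944%) held these letters, and 13 of the 10700 measured genes with a window did. Apoc2 was the other member of the fat absorption list among 15 with a window, and it had 3, 0 and 33 counts.

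Genes of fatty acid breakdown differed in a few members. Of 26 measured, 4 were higher and none lower, with a median of 0.53. Pdk4, which spares glucose by blocking pyruvate oxidation, was at 15.3, 78.2 and 276 CPM, and Vnn1, a pantetheinase and PPAR-alpha target, at 7.93, 34.3 and 127 CPM, 16.0-fold higher (13.3 to 19.3). Acaa1b, a peroxisomal thiolase, was at 7.68, 32.7 and 46.8 CPM and Eci2 at 88.5, 92.8 and 322 CPM. A separate list of acyl-CoA thioesterase genes, chosen after values were seen, had 4 of 12 higher, none lower and a median of 0.52. Its largest difference was Acot12, an acetyl-CoA thioesterase, at 0.692, 11.9 and 45.1 CPM, 65.2-fold higher (36.2 to 131). Acot5, also outside the list of 26, was at 5.35, 28.6 and 87.7 CPM, 16.4-fold higher (13.2 to 20.7). Control was the lowest library for Pdk4, Vnn1, Acaa1b, Eci2, Acot12 and Acot5. The core oxidation enzymes Cpt1a (303, 142 and 515 CPM) and Ehhadh (96.4, 26 and 143 CPM) did not reach 2-fold. In fatty acid synthesis 1 of 16 genes was higher (median -0.17), the malic enzyme gene Me1 at 22.5, 25.1 and 82.4 CPM.

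**Figure D4:**
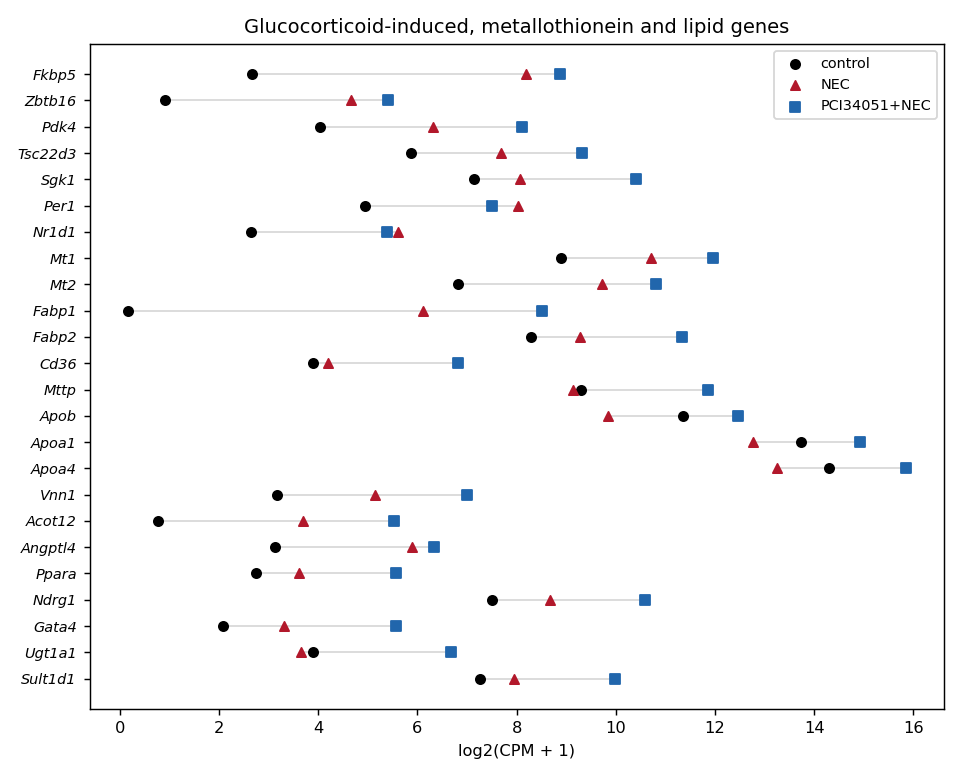
Levels of 24 glucocorticoid-induced, clock, metallothionein, lipid and detoxification genes on the log2(CPM + 1) axis, 1 symbol per library (circle control, triangle NEC, square PCI34051+NEC), joined by a grey line. The square lies furthest to the right for all genes but Per1 and Nr1d1, where the triangle does. For Mttp, Apob, Apoa1, Apoa4 and Ugt1a1 the triangle lies to the left of the control circle.

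Drug and xenobiotic metabolism was the list with the most genes higher after the glucocorticoid one, with 15 of 27 measured genes higher, none lower and a median of 1.34. Ugt1a1, which conjugates bilirubin, was at 13.8, 11.6 and 102 CPM, 7.4-fold higher (6.42 to 8.56), and the sulfotransferase gene Sult1d1 at 151, 247 and 1015 CPM, 6.70-fold higher (6.42 to 7). Cyp2c65 was at 0.503, 3.20 and 14.6 CPM and Cyp2d26 at 1.64, 15.4 and 23.6 CPM. Cyp3a13, an intestinal steroid and drug hydroxylase, was at 145, 148 and 504 CPM, 3.47-fold higher (3.32 to 3.64). Ugt1a1, Cyp3a13 and the efflux pump gene Abcb1a (51.9, 97.4 and 165 CPM) were highest in the library of drug-fed pups. The NEC library, with the same model and no drug, was below the PCI34051+NEC library for these 3 genes. Gsta1, also on the list, was highest in the NEC library, at 3.40, 27.9 and 18.6 CPM. Each group is 1 library, and the NEC library also differs in the mitochondrial share and the smooth muscle level given above. The part of the drug was not tested. The pregnane receptor gene Nr1i2 was at 106, 166 and 158 CPM. Carboxylesterase Ces2e (538, 42.6 and 511 CPM) and the pump Abcg2 (355, 61.4 and 351 CPM) did not differ by 2-fold, and members of the Cyp2c and Ugt families may share reads.

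Enterocytes of the suckling gut carry an endocytic and lysosomal apparatus that is lost at weaning. The suckling-type list had 4 of 23 genes lower and 2 higher, with a median of -0.23. Ctsl, a lysosomal protease, was at 3848, 177 and 1447 CPM, 2.66-fold lower (2.62 to 2.70), and Ctsb at 6266, 492 and 3016 CPM, 2.08-fold lower (2.05 to 2.10). Lrp2, the endocytic receptor megalin, was at 43.9, 4.11 and 13.8 CPM, 3.18-fold lower (2.72 to 3.73). Prdm1, the repressor that maintains the suckling programme, was at 127, 13.6 and 58.0 CPM, 2.19-fold lower (2.02 to 2.37). In each of these the PCI34051+NEC library stood between control and NEC. The endocytic partners Cubn (809, 355 and 1108 CPM), Amn (1526, 277 and 1285 CPM) and Dab2 (1132, 180.4 and 884 CPM) did not differ from control by 2-fold. Lysosomal genes as a list had 3 of 28 lower, none higher and a median of -0.18. The 3 were Hexa, at 2173, 196 and 1021 CPM, and Ctsl and Ctsb, which are on both lists.

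Genes that mark the adult-type enterocyte had 6 of 19 higher and none lower, with a median of 0.47. Sis, the sucrase gene that rises at weaning, was at 3.84, 37.3 and 16.6 CPM, 4.33-fold higher (3.26 to 5.83), and was highest in the NEC library. Lct, the lactase gene, which falls at weaning, was higher as well, at 192, 84.6 and 813 CPM, 4.24-fold (4.08 to 4.42), and was highest in the PCI34051+NEC library. The peptidase genes Anpep (296, 357 and 781 CPM) and Enpep (531, 203 and 1273 CPM) and the transporter gene Slc5a1 (241, 147 and 513 CPM) were over 2-fold higher. The neutral amino acid transporter gene Slc6a19 was at 644, 269.9 and 1480 CPM, 2.30-fold higher (2.24 to 2.35). Krt20, a keratin of differentiated villus cells, was at 15.9, 54.8 and 82.8 CPM, 5.2-fold higher (4.54 to 5.98). The brush border and transport epithelium list, which holds Krt20, had 6 of 21 higher and none lower, with a median of 0.27. Its structural members differed among themselves. Eps8, which caps and bundles actin in microvilli, was at 207, 116 and 515 CPM, 2.49-fold higher (2.39 to 2.59), while Ezr, which ties the membrane to actin, was at 906, 381 and 1779 CPM and was just short of the threshold. The adhesion genes Cdhr2 (2747, 585 and 3288 CPM) and Cdhr5 (3801, 1352 and 3381 CPM) did not reach 2-fold.

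Regional markers moved beside these results. Gata4, which marks the jejunum and duodenum, was at 3.21, 8.95 and 46.4 CPM, 14.5-fold higher (10.9 to 19.6). The proximal list had 4 of 9 measured higher (Fabp1, Gata4, Lct and Cyp3a25) and 1 lower, with a median of 0.88. Among the distal list of 13 measured, 3 were higher and 1 lower, with a median of -0.20. The ileal bile acid transporter gene Slc10a2 was at 0.252, 1.83 and 6.18 CPM, with only 4 counts in control, and Fabp6, its ileal partner, at 23.8, 38.9 and 30.5 CPM. Of 21 Hox genes measured, 4 were lower and none higher, the median was -0.47 and 20 lay below 0, with Hoxb6 at 24.4, 32.0 and 7.16 CPM. The segment sampled is not given, and its part in the fat, sugar and iron gene differences was not tested.

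The mineral and iron absorption list had 4 of 16 measured genes higher and 1 lower, with a median of 0.33. The 1 lower gene, Slc11a2, the apical iron carrier DMT1, was at 968, 44.5 and 193 CPM, 5.02-fold lower (4.83 to 5.23). Tfrc, Slc40a1 and Ftl1 were below control but did not reach 2-fold. The transferrin receptor gene Tfrc was at 51.3, 19 and 27.7 CPM, 1.85-fold lower (1.65 to 2.09). The exporter gene Slc40a1 was at 997, 53.1 and 578 CPM and the ferritin light chain gene Ftl1 at 5024, 1762 and 2874 CPM. The ferritin heavy chain gene Fth1 was at 2511, 776 and 2495 CPM, with control and PCI34051+NEC at nearly the same level. Heph, the ferroxidase that works with the exporter, was higher, at 233, 90.5 and 524 CPM, 2.24-fold higher (2.16 to 2.33). The other higher members were the carrier genes Slc30a10 (58.5, 61.0 and 174 CPM) and Slc30a2 (194, 81.3 and 471 CPM) and the magnesium channel gene Trpm6 (0, 432 and 21 counts). A zinc transporter list chosen after values were seen had 4 of 18 higher, 1 lower and a median of 0.18.

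**Figure D5:**
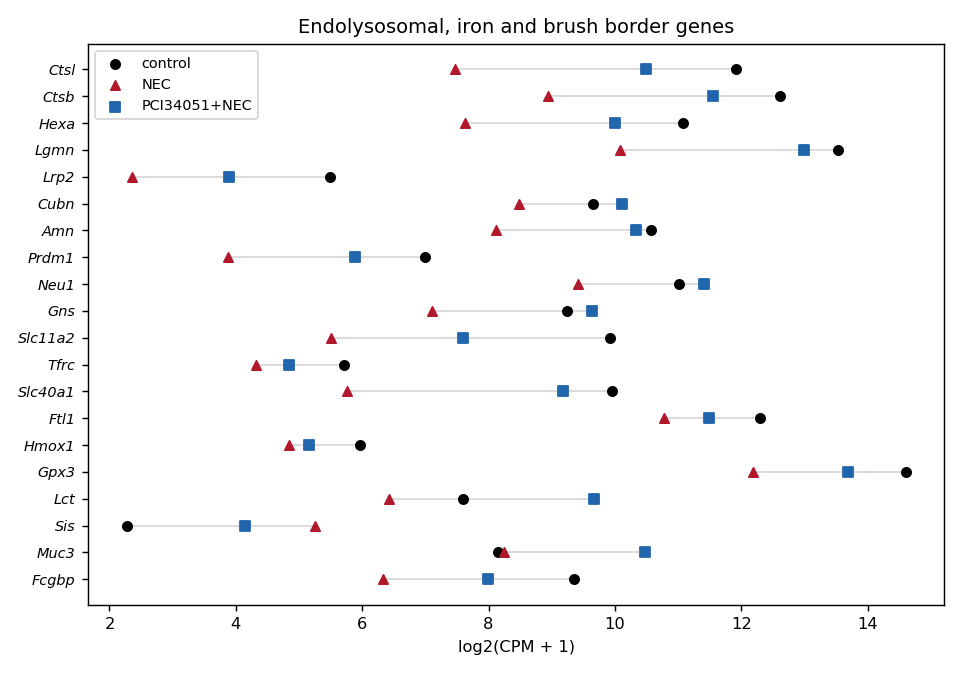
Levels of 20 endolysosomal, iron and brush border genes on the log2(CPM + 1) axis, 1 symbol per library (circle control, triangle NEC, square PCI34051+NEC), joined by a grey line. For Ctsl, Ctsb, Lrp2, Slc11a2, Ftl1 and Gpx3 the square lies between the triangle and the circle, whereas for Lct, Muc3 and Cubn it lies furthest to the right.

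Fluid and ion secretion genes had 8 of 18 higher and none lower, with a median of 0.97. Vipr1, the receptor through which VIP drives secretion, was at 26, 73.9 and 314 CPM, 12.1-fold higher (10.9 to 13.4). Clca4a was at 2.33, 2.92 and 62.6 CPM, 26.9-fold higher (19.4 to 38.4), and Clca4b, a near copy, at 3321, 839 and 6749 CPM. The chloride channel gene Cftr was at 9.25, 14.2 and 24.0 CPM. Guca2a, the peptide guanylin, was at 2570, 292 and 1521 CPM, 1.69-fold lower (1.66 to 1.72). Goblet cell genes had 2 of 15 higher and 2 lower. Fcgbp, a mucus protein, was at 653, 79.0 and 255 CPM, 2.56-fold lower (2.47 to 2.66), whereas the membrane mucin gene Muc3 was at 282, 301 and 1422 CPM, 5.05-fold higher (4.89 to 5.22). Muc13, another membrane mucin, was at 1751, 425 and 1622 CPM.

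Marker lists of other cell types differed in how many members were called. Smooth muscle had 1 of 15 lower and none higher (median -0.28), fibroblast and matrix genes 1 of 26 higher (median 0.00), and stem cell and Wnt target genes 1 of 22 each way. The Wnt target Axin2 was at 47.4, 15.3 and 17.1 CPM, 2.78-fold lower (2.41 to 3.21). Outside the list, Notum, which encodes a Wnt-inhibiting enzyme, was at 29.9, 1.55 and 3.28 CPM, 9.10-fold lower (6.79 to 12.4). Replication genes had 4 of 24 lower and 1 higher (median -0.49), all 4 at under 20 CPM. The 1 higher was Rrm2, a subunit of ribonucleotide reductase, at 6.98, 10.1 and 52.1 CPM, 7.46-fold (6.11 to 9.18). Adipocyte genes had 4 of 9 measured higher and 1 lower (median 0.62), with Fabp4, a fatty acid binding protein, at 17.4, 110.0 and 48.8 CPM. Of the 15 listed, 4, 1 and 4 had 0 counts in control, NEC and PCI34051+NEC. The defining markers Adipoq, Lep and Plin1 were among the 4 in the PCI34051+NEC library. Tuft cell genes had 2 of 4 measured lower and none higher, and summed to 13.7, 94.5 and 10.3 CPM. Liver genes had 5 of 16 lower and 1 higher (median -0.70). Alb was at 9.31, 100.4 and 0.394 CPM, highest in the NEC library, while Afp, which fetal and newborn gut also expresses, was at 786, 27.6 and 321 CPM, 2.45-fold lower (2.37 to 2.53).

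The target of the drug did not differ at the transcript level. Hdac8 (ENSMUSG00000067567, chrX:102284639-102505359) had 103, 131 and 117 counts, or 6.48, 12.0 and 7.69 CPM, and the ratio to control was 1.19 (0.902 to 1.56). Of the 11 histone deacetylase genes only Hdac9 was past 2-fold, at 4.28, 4.84 and 1.45 CPM, 2.96-fold lower (1.81 to 5.03) on 68 and 22 counts. Hdac1, Hdac2 and Hdac3, the closest relatives of Hdac8, were at 36.9, 31.2 and 24.8 CPM, at 40.2, 87.9 and 32.4 CPM and at 60.2, 47.1 and 46.8 CPM. Cohesin genes, whose products HDAC8 deacetylates or works beside, had 1 of 14 higher, Stag3 at 2.45, 1.55 and 9.46 CPM, and Smc3 was at 39.1, 24.9 and 51.8 CPM. The study's title names arginine and proline metabolism. Citrulline and arginine synthesis genes had none of 12 past 2-fold and a median of -0.12. Ass1, which joins citrulline to aspartate, was at 241, 35.4 and 121 CPM, 2-fold lower as a plain ratio (1.89 to 2.12) but short of 2-fold with the pseudocount. Cps1, the entry enzyme, was at 715, 118 and 728 CPM and Oat at 2011, 387 and 1939 CPM. In the proline and hydroxyproline list of 16, Hoga1, which splits the last product of hydroxyproline breakdown, was higher at 28.1, 32.4 and 123 CPM, and Plod1, a collagen lysyl hydroxylase, was lower at 160.2, 24.8 and 72.9 CPM. In the nitric oxide, creatine and agmatine list, 3 of 13 genes were lower, the nitric oxide synthase gene Nos1 (12.1, 19.3 and 4.14 CPM), Gamt (15.5, 3.84 and 5.45 CPM) and Ckmt2 (10.4, 2.19 and 3.35 CPM), and 1 was higher, Ddah1 (36.1, 18.4 and 92.8 CPM).

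Some genes were high or low in the PCI34051+NEC library against both other libraries. Upward these included Cd36, Mttp, Ugt1a1 and Clca4a, given above, the adenosine receptor gene Adora2b at 1.64, 1.92 and 15.8 CPM, 9.64-fold over control (6.42 to 15.1), and Ptk6, a kinase of differentiating epithelium, at 4.09, 4.11 and 28.7 CPM, 7.02-fold (5.40 to 9.26). Stk17b, a death-associated kinase, was at 16.0, 13.2 and 110.0 CPM, 6.88-fold higher (6.03 to 7.88). Downward the growth factor midkine (Mdk) was at 24.5, 40.8 and 4.66 CPM, 5.26-fold lower (4.08 to 6.87), and Ldlrad4, a negative regulator of TGF-beta signalling, at 10.6, 11 and 0.985 CPM, 10.8-fold lower (6.36 to 19.7). Coro1a (52.2, 24.3 and 6.31 CPM) and Arhgap45 (22.1, 16.9 and 2.96 CPM), both strongly expressed in leukocytes, were low there as well. The formula-fed libraries differ in the drug, but also in the sex of the pups, the mitochondrial share and the smooth muscle level given above, and the part of these in the differences from NEC was not tested.

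Other genes were apart from control in both formula-fed libraries. Beyond those given above they included Gpt, alanine aminotransferase, at 6.23, 48.7 and 61.6 CPM, 9.88-fold over control in the PCI34051+NEC library (8.03 to 12.3), and Ppm1j at 6.61, 152 and 62.1 CPM, 9.41-fold (7.68 to 11.6). The phospholipase gene Pla2g4f was at 20.1, 0.822 and 1.05 CPM, 19.1-fold lower (11.6 to 33.8). Slc5a12, a lactate transporter, had 0, 43 and 181 counts and, set against 3 counts in control, was at least 63.0-fold higher. The peptide transporter Slc15a2 was at 19.4, 4.75 and 1.25 CPM, 15.5-fold lower (9.77 to 26.1), while its relative Slc15a1, the main oligopeptide transporter of the villus, was at 47.3, 17 and 148 CPM, 3.13-fold higher (2.88 to 3.41). Slc6a14, a broad amino acid carrier, had 493, 0 and 67 counts, 7.05-fold lower in the PCI34051+NEC library (5.45 to 9.24). These comparisons with control share 1 control library, so a value peculiar to it would appear in both.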

How the data were processed

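Total RNA from mouse intestine was sequenced as 150 bp paired-end reads, per the labels' protocols. The authors deposited raw read counts per gene symbol for 3 libraries, 1 per group. Reads were placed on mm10, as the submitters' processing notes list. No source used here gives an aligner, annotation, strand setting or filter. Overlapping, antisense and near-identical genes may therefore share counts. Of 21983 symbols 21926 matched GENCODE M21, which is on that build.

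Scaling was by TMM across the 3 libraries (edgeR 4.0.16 in R 4.3.3). The factors were 1.05, 1.03 and 0.923 for control, NEC (10650638 counts) and PCI34051+NEC. Differences are on log2(CPM + 1), with at least 1 CPM in 1 or both libraries and a 2-fold threshold. Ratios have exact conditional binomial (Clopper-Pearson) 95% intervals. No molecular identifiers are described, and copies made by PCR are not independent, so these intervals cover counting error alone. For a fold against 0 counts, 3 counts per library were used (0.189, 0.274 and 0.197 CPM). With 1 library a group no test was possible. The procedure was checked on simulated counts.

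The members and the 66 gene lists were chosen with earlier results of these data known, and 9 further lists after values were seen here. The rule for named genes took Hdac8 and, each way, the 15 largest differences among genes whose higher library reached 10 CPM, the 12 with the largest change in CPM each way, and 8 each way that were apart from control and NEC alike or from control in both formula-fed libraries. It also took, per list, up to 5 members that differed most among those reaching 5 CPM, the 3 of highest level, and all members of the Y-linked, deacetylase, citrulline, clock and glucocorticoid lists. That gave 471 genes, of which those described are printed. Vil1, Muc2, Jund, Gapdh, Irf9, Ddx58, Ifit1bl1, Ifnar1, Ifngr1, Cd163, C1qa, Coro1a, Nr3c1, Hmox1, Mogat2, Plin2, Apoc2, Cpt1a, Ehhadh, Cyp3a13, Abcb1a, Nr1i2, Cubn, Dab2, Fabp6, Notum, Smc3, Trpm6, Car9, Pdk1, Slc2a1, the list members given at 0 counts and the genes of the closing section and of the plots that the rule does not name were chosen after their values were seen.

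Promoter windows and their letters are from RefSeq (GRCm38.p6), matched by symbol. The alternatives changed the scaling (size factors of DESeq2 1.42.0, total counts, TMM on the compared pair, or totals that leave out mitochondrial genes and the 50 with most counts), the pseudocount (0.25 or 4 CPM) and the filter (none, or 5 CPM at least). Others were libraries thinned to 10650638 counts, removal of the length and GC trend in 30 bins (values for 99.8% of genes) and intervals beyond 2-fold. Versions were scipy 1.17.1, pandas 2.3.3, numpy 2.4.6 and matplotlib 3.10.9 under Python 3.11.15.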

Additional observations from a re-analysis of the deposited data

How the results depend on the processing

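Of 471 named genes, 235 were 2-fold apart. None of these 235 changed sign under an alternative, and 55 of them fell under 2-fold in 1 or more. Changes of sign were not counted for the other named genes. Of 3757 values of the 471 genes under the alternatives, 3051 counted as little moved and 706 as moved further. A little-moved value lay inside the gene's counting interval, or moved no further than that interval reaches from its middle. The interval is that of the plain ratio, on the log2 scale. Of 729 list medians under the alternatives 632 moved little, 97 moved further and none of those past 2-fold changed sign. The count of lower genes was 1358 with totals that leave out mitochondrial genes and the 50 with most counts, with 693 higher and a median shift of -0.169. It was 349 with a pseudocount of 4 CPM, which left 991 genes apart in all, 64.8% of them higher. The lowest genes lose most by that pseudocount through its construction. All other alternatives kept the counts of higher, lower and 2-fold apart genes within 1.5 times those given, from 633 to 1083 higher and from 596 to 1284 lower. With a minimum of 5 CPM, 797 genes were higher and 596 lower. MHC class II genes lower ranged from 6 to 10, T cell genes from 1 to 14 and interferon-induced GTPase genes from 3 to 11. No paired analysis was possible because each group has 1 library, and no replicate could be left out. The depth limits what can be said of genes under about 1 CPM, and genes at 0 counts have a bound only.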

Other observations

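Further gene families, listed after values were seen, differed in the same library pair, where 6.55% of genes were higher and 6.55% lower. Ligands and receptors of the EGF family, which drive epithelial repair, had 5 of 12 measured members higher and 1 lower, with a median of 0.73. Tgfa was at 39.7, 50.5 and 273 CPM in control, NEC and PCI34051+NEC, 6.87-fold higher than control (6.32 to 7.48), and Areg at 6.61, 13.8 and 43.4 CPM, 6.56-fold higher (5.33 to 8.14). The receptor gene Erbb3 was at 324, 196 and 732 CPM, while Egfr, at 25.5, 33.2 and 44.1 CPM, did not reach 2-fold. Krueppel-like factor genes had 7 of 14 higher and none lower, with a median of 1.00. Klf4, a factor of differentiated epithelium, was at 132, 78.5 and 372 CPM, 2.81-fold higher (2.67 to 2.96), and Klf15, a glucocorticoid-induced metabolic factor, at 2.01, 32.0 and 11.4 CPM, 5.64-fold higher (3.85 to 8.51). Klf2, which is strong in endothelium and lymphocytes, was at 11.5, 50.1 and 11.6 CPM.

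Nuclear receptor and gut transcription factor genes had 10 of 25 higher and 1 lower, with a median of 0.90. Ppara, the fatty acid receptor that drives fat oxidation genes, was at 5.73, 11.1 and 46.3 CPM, 8.09-fold higher (6.49 to 10.2), and its coactivator Ppargc1a at 15.4, 25.3 and 60.8 CPM, 3.94-fold higher (3.42 to 4.56). The bile acid receptor gene Nr1h4 was at 192, 238 and 519 CPM, 2.70-fold higher (2.59 to 2.82). Nr1h3, the oxysterol receptor LXR-alpha, was the 1 lower member, at 42.5, 20.8 and 16.5 CPM, 2.58-fold lower (2.23 to 2.99). The enterocyte identity factors Hnf4a (517, 196 and 347 CPM) and Cdx2 (299, 77.4 and 213 CPM) did not reach 2-fold. UDP-glucuronosyltransferase genes had 7 of 8 measured members higher and none lower, with a median of 1.81, and share exons in the Ugt1a cluster, so they are not separate observations. Interferon-induced GTPase genes had 9 of 13 lower and none higher, with a median of -1.22. Insulin and growth hormone axis genes, listed earlier, had 3 of 20 higher, among them Irs2, the insulin receptor substrate, at 49.8, 73.8 and 209.7 CPM, 4.21-fold higher (3.90 to 4.56).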
